A study of Mus musculus with 9 samples.

Results

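Antioxidant and ferroptosis-defence genes were followed in mature megakaryocytes (mMKs) from the bone marrow of irradiated mice. The genes were chosen for their known roles: Slc7a11, Gclc, Gclm, Gpx3, Gpx4, Txnrd1, Srxn1, Hmox1, Nqo1 and Sod2. These 10 genes carry 15 probes on the array, and all 15 probes were well above background on all 9 arrays, so that all 10 genes were among the 29410 genes tested, of 37325 named on the array. The mice were male and were either unirradiated (Ctrl) or sampled at 1 day or 3 days after 5 Gy of γ-ray IR to the whole body (1 and 3 dpi), with 3 arrays in each of the 3 groups. Strain and age are not given in the sample labels. The mMKs were obtained by positive selection for CD41 and then for CD42d.

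Levels are given as the log2 of the spot intensity minus the 75th percentile of its array, so that a level of 0 lies at that percentile and a difference of 1 is a 2-fold change. The brightest probe of a gene stands for it. A gene was called where its adjusted p (limma, Benjamini-Hochberg over all genes tested) was under 0.05 and its change at least 2-fold. On this scale the median gene differed from Ctrl by 0.25 at 1 dpi and by 0.11 at 3 dpi, and from 1 dpi to 3 dpi by -0.11. The raw signal was lowest on the 1 dpi arrays, with a log2 75th percentile of 9.33 to 9.45, against 10.03 to 10.66 in Ctrl and 10.37 to 10.55 at 3 dpi. Ctrl replicate 1 also differed from its group, with a log2 median of 6.24 against 7.16 and 7.20 on the other Ctrl arrays and 6.11 to 6.17 at 1 dpi, and with the lowest share well above background of the 9 arrays (69.1%, the others 72.3% or more). Differences are therefore given as fitted, with the value relative to this median where it changes the reading. Only the fold is shifted there, and a call on the shifted fold keeps the adjusted p of the difference as fitted.

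Ionizing radiation splits water into radicals, and cells answer oxidants with a battery of defence enzymes. Much of this battery is switched on by NRF2 (gene Nfe2l2), a transcription factor that KEAP1 holds back until oxidants or electrophiles modify it, and BACH1 competes with NRF2 for the same DNA elements. Ferroptosis is an iron-dependent death by lipid peroxidation. It is held back by cystine import through the transporter SLC7A11, by the glutathione made from that cystine, and by GPX4, the peroxidase that uses glutathione to reduce lipid hydroperoxides in membranes. Megakaryocytes make reactive oxygen species as they mature, and platelets carry over much of their RNA and enzymes.

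NRF2 and other stress factors act through short DNA elements near their target genes, so the promoters of the members were searched for such elements. RefSeq promoter windows of build GRCm38.p6, from 250 bases before to 50 bases after an annotated transcription start, were at hand for 8 of the 10 genes, in 13 windows. Hmox1 and Gclc were not among them. Both strands were searched for the antioxidant response element core TGACNNNGC, for TGANTCA, the element of AP-1 that NRF2 partners also bind, and for TGATGNAA, the amino acid response element that ATF4 binds. The first 2 of these patterns overlap in a longer element that satisfies both. The core TGACNNNGC occurs in 12.4% of all 32851 windows of this length, TGANTCA in 7.81% and TGATGNAA in 3.97%.

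The stretches below are those with a match before the start, shown because these members carry the cystine import, glutathione synthesis and thioredoxin results given later. Each is printed 5′ to 3′ on the strand of the gene, with the matched letters in capitals, and lies before the annotated start. The Slc7a11 stretch (chr3:50443623-50443709, minus strand) holds TGATGNAA on the given strand and again on the opposite strand, 66 and 47 bases before the start. The Gclm stretch (chr3:122245393-122245461, plus strand) and the Txnrd1 stretch (chr10:82859084-82859152, plus strand) each hold the core TGACNNNGC on the opposite strand, 134 and 92 bases before the start. The Srxn1 stretch (chr2:152105392-152105515, plus strand) holds TGANTCA at 102 and 45 bases before the start, and the Srxn1 window holds the core TGACNNNGC once more, on the opposite strand, 29 bases after the start.
Slc7a11: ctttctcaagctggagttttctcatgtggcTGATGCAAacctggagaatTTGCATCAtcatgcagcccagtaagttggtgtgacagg
Gclm: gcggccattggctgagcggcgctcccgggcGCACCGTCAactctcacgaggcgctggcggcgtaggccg
Txnrd1: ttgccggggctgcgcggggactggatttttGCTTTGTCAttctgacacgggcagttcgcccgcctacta
Srxn1: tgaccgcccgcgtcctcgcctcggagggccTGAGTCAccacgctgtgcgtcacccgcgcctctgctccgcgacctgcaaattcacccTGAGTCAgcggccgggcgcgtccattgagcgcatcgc
The windows of Nqo1, Gpx3, Gpx4 and Sod2 hold none of the 3 patterns. A match describes the letters and not a bound site.

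The members did not move as 1 block after IR. At 1 dpi against Ctrl, 2 of the 10 genes were called higher, Hmox1 and Gpx3, where 12.3% of all genes were called higher, and none was called lower, where 2.87% were. At 3 dpi against Ctrl, 3 of the 10 were called higher, Hmox1, Gpx3 and Srxn1, beside 6.98% of all genes, and none was called lower, beside 1.82%. By adjusted p alone, with no minimum fold, 5 members were higher (Hmox1, Gpx3, Srxn1, Slc7a11 and Gpx4) and 2 lower (Nqo1 and Gclc) at 1 dpi, beside 34.8% and 21.1% of all genes. At 3 dpi 5 were higher (Hmox1, Gpx3, Srxn1, Gclm and Txnrd1) and 1 lower (Gclc), beside 16.9% and 15.1%. With 10 genes, these counts of calls are too few to set the list apart from all genes. Arrays that do not overlap with Ctrl were common too, for 67.47% of all genes at 1 dpi and 47.05% at 3 dpi. A lack of overlap given for a gene below describes its arrays and does not set it apart. The size of the 1 dpi differences below depends on the scaling, and with each array scaled to its median they were -0.71 for Nqo1, -0.71 for Gclc, 0.54 for Slc7a11, 0.58 for Srxn1, -0.33 for Txnrd1, 1.29 for Hmox1 and 1.09 for Gpx3.

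**Figure D1:**
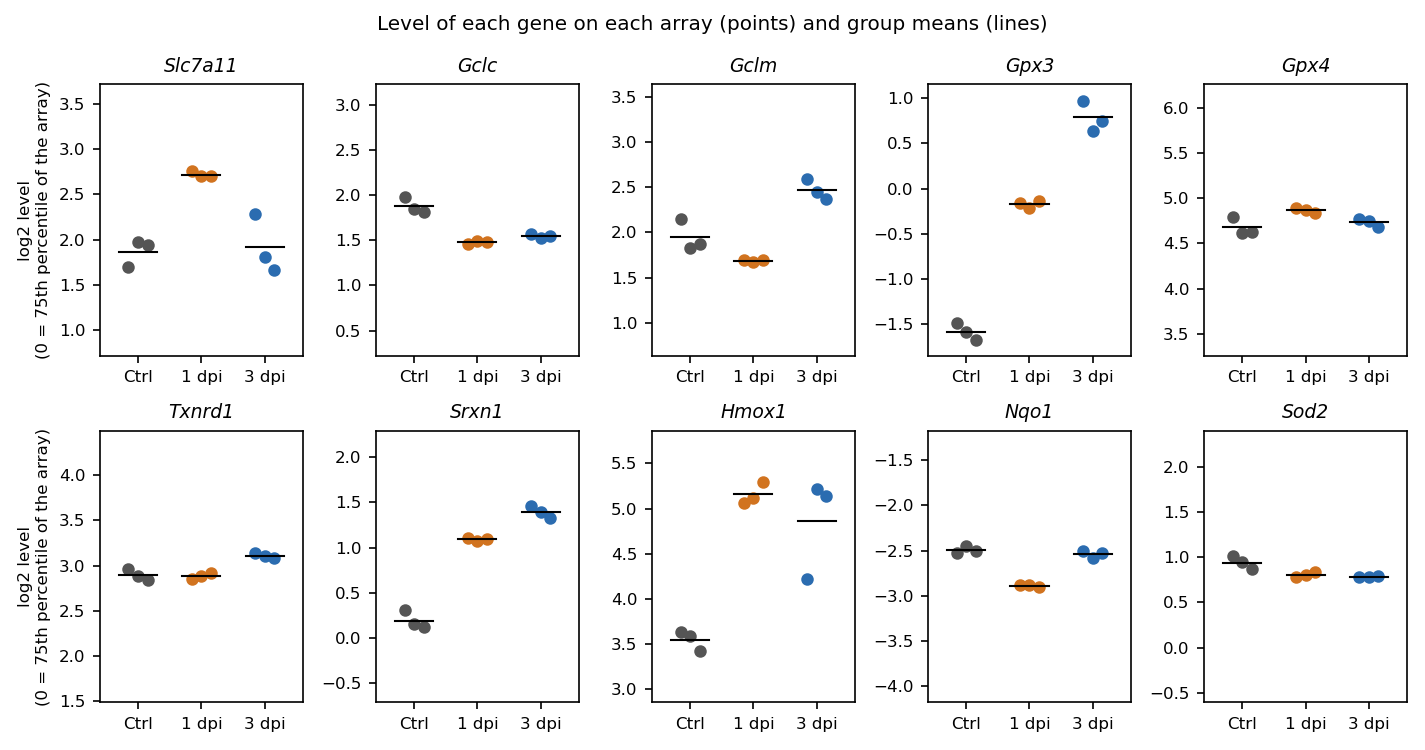
Level of each of the 10 genes on each of the 9 arrays, as log2 intensity relative to the 75th percentile of the array (y axis, the same span of 3 units in each panel), by group (x axis). Points are arrays and lines group means. The 3 Ctrl arrays lie below all 6 arrays post IR in the Gpx3, Srxn1 and Hmox1 panels, while the Gclc arrays post IR all lie below Ctrl. Of all genes, 67.47% did not overlap with Ctrl at 1 dpi and 47.05% at 3 dpi.

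Slc7a11, Gclc and Gclm supply glutathione. Slc7a11 encodes the light chain of the cystine/glutamate exchanger, the entry point of cystine. Its level was 1.70, 1.97 and 1.94 on the 3 Ctrl arrays, 2.76, 2.70 and 2.70 at 1 dpi, and 2.28, 1.81 and 1.67 at 3 dpi. All 3 arrays of 1 dpi lay above all other arrays, while the 3 dpi arrays overlapped with Ctrl. The rise at 1 dpi was 1.80-fold (log2 difference 0.85, SE 0.16, adjusted p = 0.00282) and thus below the 2-fold bound. At 3 dpi the difference from Ctrl was 0.05 (95% interval -0.31 to 0.42, adjusted p = 0.813). Without 3 dpi replicate 1, the highest of its group, the latter was -0.13 (adjusted p = 0.4), and it was also below 0 relative to the median of all genes (-0.06) and with each array scaled to its median (-0.07).

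Gclc encodes the catalytic subunit of glutamate-cysteine ligase, which carries out the rate-limiting step of glutathione synthesis, and Gclm the modifier subunit that makes it more efficient. The Gclc level was 1.98, 1.84 and 1.81 in Ctrl, 1.46, 1.49 and 1.48 at 1 dpi, and 1.57, 1.53 and 1.54 at 3 dpi. All 6 arrays post IR lay below all Ctrl arrays. The log2 difference was -0.40 at 1 dpi (SE 0.06, adjusted p = 0.00135), 1.32-fold lower, and -0.33 at 3 dpi (SE 0.06, adjusted p = 0.00524), 1.26-fold lower. The Gclm level was 2.15, 1.83 and 1.87 in Ctrl, 1.70, 1.67 and 1.69 at 1 dpi, and 2.59, 2.44 and 2.37 at 3 dpi. Gclm was thus lowest on the 1 dpi arrays and highest on the 3 dpi arrays, with no overlap among the 3 groups. The log2 difference from Ctrl was -0.26 at 1 dpi (SE 0.10, adjusted p = 0.056), which missed the threshold, and 0.52 at 3 dpi (SE 0.10, adjusted p = 0.00526), a 1.44-fold rise. The 1 dpi difference of Gclm lies at the edge of the threshold and depends on the setting. It passed with median scaling (-0.58, adjusted p = 0.0218), quantile normalization (-0.25, adjusted p = 0.0396) and normexp (-0.30, adjusted p = 0.0108), which here always includes quantile normalization. It also passed with the replicate block (adjusted p = 0.04) and with probes well above background on all 9 arrays (adjusted p = 0.0438), at -0.26 in both. It missed in the deposited log2 table (-0.24, adjusted p = 0.0514), in the methods' t-test (adjusted p = 0.107) and on leaving out any single array but Ctrl replicate 2. Without Ctrl replicate 1, the highest of its group, it shrank to -0.16 (adjusted p = 0.0997). The 3 dpi difference did not pass with median scaling (0.40, adjusted p = 0.132). The subunits of the ligase therefore differed in direction at 3 dpi under each scaling run.

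Gpx3 and Gpx4 encode selenium-dependent glutathione peroxidases, GPX3 a secreted one that works outside cells and in plasma, GPX4 the one in membranes. The Gpx3 level was -1.49, -1.58 and -1.67 in Ctrl, -0.16, -0.22 and -0.14 at 1 dpi, and 0.97, 0.64 and 0.75 at 3 dpi. The 3 groups did not overlap and were ordered by time. Gpx3 was 2.66-fold higher at 1 dpi (log2 difference 1.41, SE 0.10, adjusted p = 2.24e-05) and 5.16-fold higher at 3 dpi (log2 difference 2.37, SE 0.10, adjusted p = 1.64e-06), the largest change of the 10 genes at 3 dpi. The Gpx4 level, in contrast, was 4.79, 4.62 and 4.63 in Ctrl, 4.90, 4.87 and 4.84 at 1 dpi, and 4.77, 4.75 and 4.68 at 3 dpi. These 9 values span less than the rise of any called member. The Gpx4 difference was 0.19 at 1 dpi (95% interval 0.03 to 0.34, adjusted p = 0.0425) and 0.05 at 3 dpi (95% interval -0.10 to 0.21, adjusted p = 0.57). Relative to the median of all genes the 1 dpi value was -0.06, and it was -0.10 after quantile normalization and -0.13 with each array scaled to its median, so that its direction depends on the scaling. The 3 dpi value turned in the same way, to -0.06 relative to the median of all genes and to -0.07 with median scaling.

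The rise of Gpx3 went along with markers of other marrow cells. The 10 stromal markers, led by Cxcl12 and Col1a2, had a summed level of 10.4, 9.92 and 10.4 times the 75th percentile on the Ctrl arrays, 51.2, 44.0 and 48.0 at 1 dpi, and 96.6, 87.8 and 95.04 at 3 dpi. The sums follow the brightest genes, and Pdgfrb was lower at both times (-0.41 and -0.39), while Lepr and Pdgfra did not pass the test at 3 dpi (adjusted p = 0.349 and 0.586), these 3 named after their values were seen. The 13 macrophage markers, led by Csf1r and Vcam1, summed to 65.0, 58.5 and 56.4 in Ctrl, 85.0, 80.3 and 84.5 at 1 dpi, and 155, 152 and 150 at 3 dpi. Not all of them rose at 1 dpi, as Cd163 was called lower (-2.07) and Mrc1 (-0.54), Adgre1 (-0.21) and Vcam1 (-0.14) were below Ctrl, the first 3 named after their values were seen. All 10 stromal and all 13 macrophage markers were well above background in each group, none being absent from Ctrl. The part of these cells in the Gpx3 rise was not tested, and fewer or more cells of a type cannot be told apart from less or more RNA per cell in such bulk samples.

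**Figure D2:**
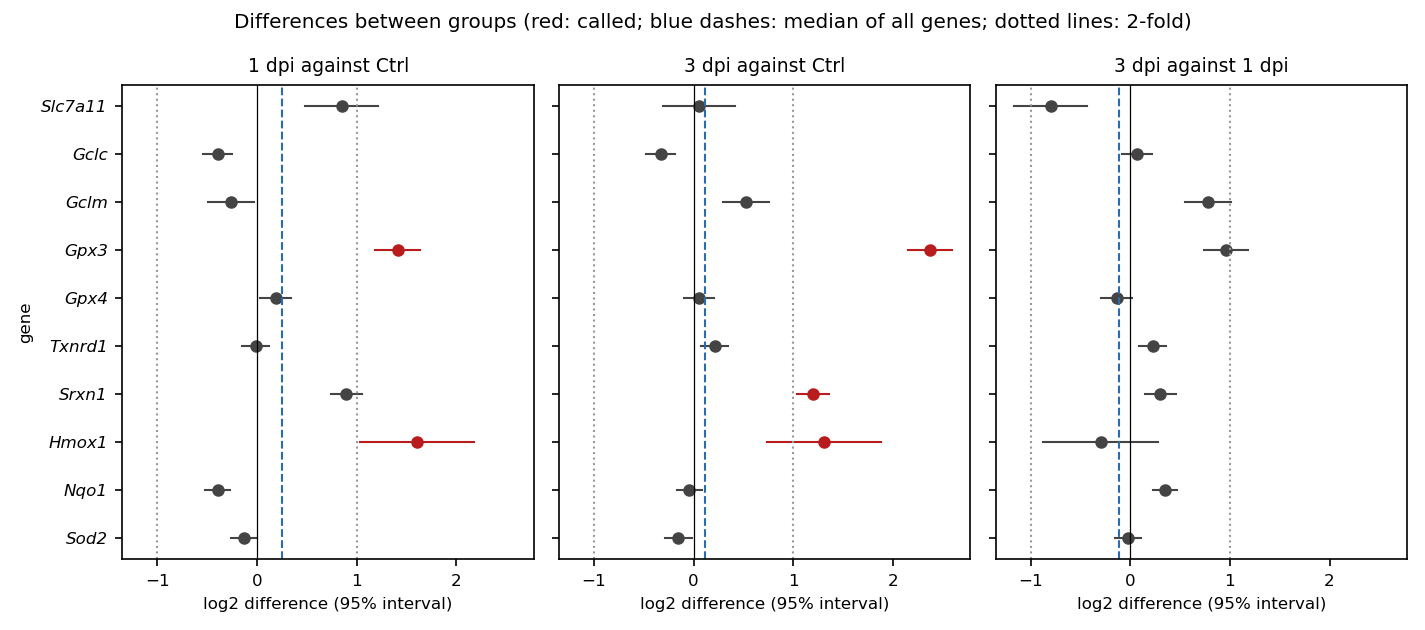
Log2 difference (x axis) of each gene (y axis) in the 3 comparisons, with 95% intervals from the limma fit on 9 arrays. Red marks called genes (2 at 1 dpi, 3 at 3 dpi, 0 between 1 and 3 dpi), blue dashes the median of all genes (0.25, 0.11 and -0.11) and dotted lines a 2-fold change. The intervals of Gpx4, Txnrd1 and Sod2 lie close to 0 in each comparison.

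Txnrd1 and Srxn1 belong to the thioredoxin branch. Txnrd1 encodes thioredoxin reductase, the selenoprotein that recharges thioredoxin, and Srxn1 encodes sulfiredoxin, which restores peroxiredoxins that peroxide has overoxidized. The Srxn1 level was 0.30, 0.15 and 0.12 in Ctrl, 1.101, 1.073 and 1.093 at 1 dpi, and 1.45, 1.39 and 1.33 at 3 dpi. As for Gpx3, the groups did not overlap and the 3 dpi arrays were the highest. Srxn1 was 1.86-fold higher at 1 dpi (log2 difference 0.90, SE 0.07, adjusted p = 4.1e-05), short of the 2-fold bound, and 2.30-fold higher at 3 dpi (log2 difference 1.20, SE 0.07, adjusted p = 9.83e-06). The Srxn1 call at 3 dpi held with each other scaling, where the log2 difference stayed above 1, at 1.08 or more.

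Txnrd1 has 2 probes that did not give the same picture. The brighter one, which stands for the gene, read 2.97, 2.88 and 2.84 in Ctrl, 2.85, 2.88 and 2.92 at 1 dpi, and 3.14, 3.11 and 3.08 at 3 dpi. The 1 dpi arrays overlapped with Ctrl and the 3 dpi arrays lay above both. Its log2 difference was -0.01 at 1 dpi (95% interval -0.15 to 0.12, adjusted p = 0.87) and 0.21 at 3 dpi (SE 0.06, adjusted p = 0.0266), the latter 0.10 relative to the median of all genes and 0.09 with median scaling, where it did not pass (adjusted p = 0.68). The other probe lies at chr10:82338379-82338438 of mm9, plus strand, the build of the array annotation, while the brighter probe lies at chr10:82360230-82360289, and both are assigned to the same RefSeq transcript. Its 60 bases are shown because the deposited log2 table takes its Txnrd1 row from this probe.
Txnrd1 second probe: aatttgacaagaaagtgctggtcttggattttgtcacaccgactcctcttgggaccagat
It read 1.41, 1.03 and 1.11 in Ctrl, 1.78, 1.82 and 1.68 at 1 dpi, and 1.61, 1.49 and 1.52 at 3 dpi, with no overlap between Ctrl and either group post IR. Fitted over all probes, its log2 difference was 0.58 at 1 dpi (adjusted p = 0.0024) and 0.35 at 3 dpi (adjusted p = 0.033). The reading of Txnrd1 at 1 dpi thus depends on the probe, and with the mean of both it was 0.28 (adjusted p = 0.0148).

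Hmox1 and Nqo1 are textbook NRF2 targets. Hmox1 encodes haem oxygenase 1, which opens the haem ring and frees iron, carbon monoxide and biliverdin, and Nqo1 a quinone reductase. The Hmox1 level was 3.64, 3.59 and 3.42 in Ctrl, 5.06, 5.12 and 5.29 at 1 dpi, and 4.22, 5.22 and 5.14 at 3 dpi. All 6 arrays post IR lay above Ctrl, with replicate 1 of 3 dpi well below its group. Hmox1 was 3.05-fold higher at 1 dpi (log2 difference 1.61, SE 0.25, adjusted p = 0.00115), the largest rise of the 10 genes at that time, and 2.48-fold higher at 3 dpi (log2 difference 1.31, SE 0.25, adjusted p = 0.00489). Without replicate 1 of 3 dpi, the log2 difference at 3 dpi was 1.63 (adjusted p = 7.98e-05). The 3 dpi call was lost in the methods' t-test after adjustment (adjusted p = 0.0602).

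A second and much dimmer Hmox1 probe gave a larger rise and a clearer return. Its Ctrl mean was -5.63, against 3.55 on the brightest probe, and the effect of the low signal on its differences was not tested. It lies at chr8:77620085-77620144 of mm9, plus strand, and is assigned to an Ensembl transcript, while the RefSeq transcript has the brightest probe, at chr8:77624406-77624466. It is shown because the Hmox1 row of the deposited log2 table comes from it.
Hmox1 second probe: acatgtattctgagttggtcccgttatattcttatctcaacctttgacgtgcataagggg
It read -5.97, -5.48 and -5.45 in Ctrl, -2.68, -2.58 and -3.03 at 1 dpi, and -3.84, -3.98 and -4.12 at 3 dpi. The 3 groups did not overlap, and replicate 1 of 3 dpi did not stand apart here. The log2 difference was 2.87 at 1 dpi (SE 0.18, adjusted p = 1.31e-05), 1.65 at 3 dpi (SE 0.18, adjusted p = 0.000255) and -1.22 from 1 dpi to 3 dpi (adjusted p = 0.0011). Both probes rose post IR. The fall between the time points passed the test on the second probe, while on the brightest one it was -0.30 (adjusted p = 0.359).

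The Nqo1 level was -2.53, -2.45 and -2.51 in Ctrl, -2.88, -2.88 and -2.91 at 1 dpi, and -2.51, -2.58 and -2.53 at 3 dpi. The 1 dpi arrays lay below all others, and the 3 dpi arrays overlapped with Ctrl. Nqo1 was 1.31-fold lower at 1 dpi (log2 difference -0.39, SE 0.05, adjusted p = 0.000658) and differed by -0.05 at 3 dpi (95% interval -0.17 to 0.08, adjusted p = 0.551). Hmox1 and Nqo1, often used together as a readout of NRF2, thus moved in opposite directions at 1 dpi. Sod2 encodes the manganese superoxide dismutase of mitochondria. Its level was 1.01, 0.94 and 0.86 in Ctrl, 0.78, 0.81 and 0.83 at 1 dpi, and 0.78, 0.78 and 0.79 at 3 dpi. The arrays post IR lay just below Ctrl, and the differences of -0.13 at 1 dpi (adjusted p = 0.0861) and -0.15 at 3 dpi (adjusted p = 0.0815) missed the threshold. With median scaling the 1 dpi difference of Sod2 was -0.45 and passed (adjusted p = 0.023), as it did with normexp (-0.14, adjusted p = 0.0462).

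Slc7a11 has 4 probes, and all 4 were higher at 1 dpi. The log2 difference at 1 dpi was 0.85 on the brightest probe, 1.55 (adjusted p = 4.09e-05) and 0.71 (adjusted p = 0.0147) on the pair assigned to the RefSeq transcript, and 2.09 (adjusted p = 3.47e-05) on a probe of another Ensembl transcript. At 3 dpi they were 0.05, 0.66 (adjusted p = 0.00409), 0.83 (adjusted p = 0.012) and 1.17 (adjusted p = 0.000843) in the same order. The 3 other probes therefore gave a rise at 3 dpi that the brightest did not. They were dimmer, with Ctrl means of -1.92, -4.79 and -4.57 in the same order, against 1.87 on the brightest. Dim probes tended upward at 1 dpi on this scale. There the median of all genes was 0.39 with no filter on dim probes and 0.17 with probes well above background on all 9 arrays. The effect of the low signal on the differences of these probes was not tested. With the mean of all probes of a gene, Slc7a11 was called at 1 dpi (log2 difference 1.30, adjusted p = 1.16e-05), as it was in the deposited log2 table, which takes its row from the probe with the largest rise (1.77, adjusted p = 0.000207 at 1 dpi, and 1.01, adjusted p = 0.00564 at 3 dpi).

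**Figure D3:**
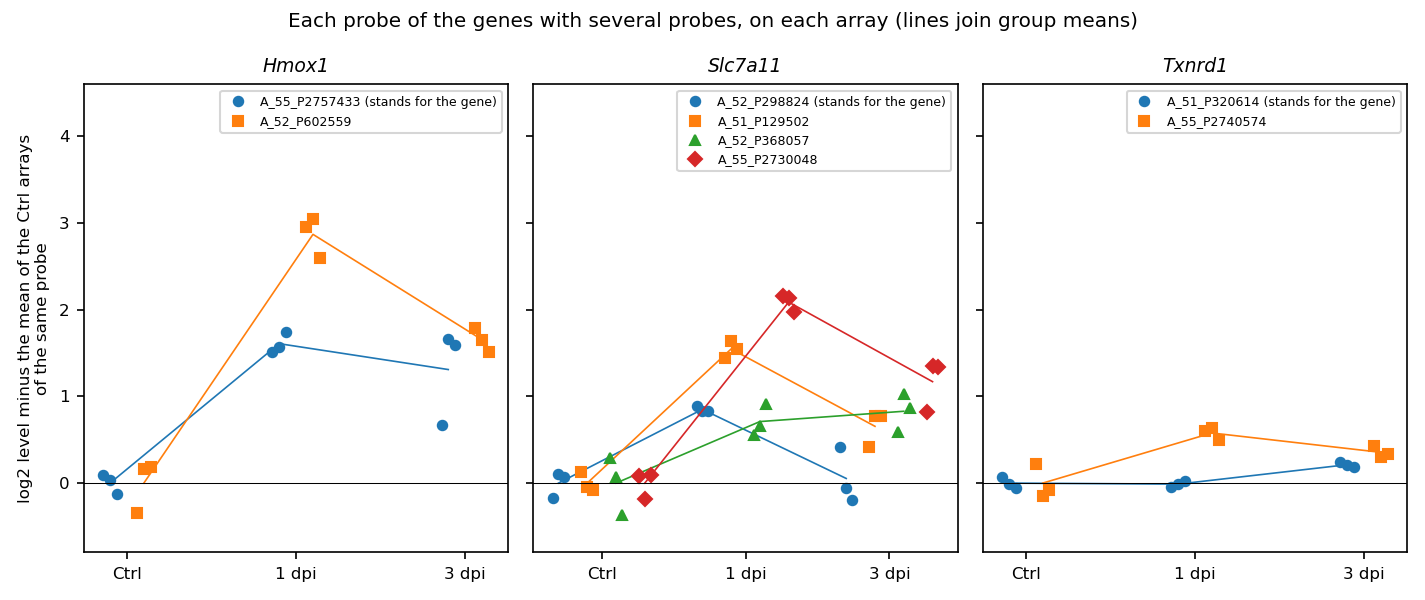
Each probe of Hmox1, Slc7a11 and Txnrd1 on each array, as the log2 level minus the mean of the 3 Ctrl arrays on the same probe (y axis), by group (x axis); lines join group means. All probes of Hmox1 and Slc7a11 lie above 0 at 1 dpi, from 0.71 to 2.87 in the group means, whereas the Txnrd1 probes read -0.01 and 0.58.

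The 1 dpi and 3 dpi groups share their Ctrl arrays, so their difference was tested directly. Of the 10 genes none was called between 1 and 3 dpi, beside 3.97% of all genes called higher at 3 dpi and 4.82% called lower. By adjusted p alone 5 members were higher at 3 dpi than at 1 dpi (Gpx3, Gclm, Nqo1, Srxn1 and Txnrd1) and 1 lower (Slc7a11), beside 19.8% and 24.9% of all genes. Gpx3 came closest to the 2-fold bound, at 0.96 (SE 0.10, adjusted p = 0.000227), and relative to the median of all genes it was 1.07. Gclm was 1.72-fold higher at 3 dpi than at 1 dpi (0.78, SE 0.10, adjusted p = 0.000672), and Slc7a11 was 1.74-fold lower (-0.80, SE 0.16, adjusted p = 0.00486). On the brightest probes the transporter was thus higher at the earlier time and the ligase modifier at the later one, while 1 of the 4 Slc7a11 probes did not fall (0.12, adjusted p = 0.638).

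The genes most like Hmox1 over the 9 arrays, by the root mean square difference of the log2 values after each gene was centred, were led by Ccng1, a p53 target, at 0.21. The next 2 carry no gene symbol. Ccng1 differed from Ctrl by 1.69 at 1 dpi and 1.14 at 3 dpi. Gclc and Nqo1 fell alike at 1 dpi (-0.40 and -0.39), and which fell more depends on the scaling. For Gclc, taken by its slightly larger value as fitted, the most alike with a symbol were Rasa3, at 0.03, and Mapk9, also at 0.03, and 1 of the 3 nearest has no symbol.

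In the lists of other pathway genes, counts of calls stand beside 12.3% of all genes called higher and 2.87% lower at 1 dpi, and 6.98% and 1.82% at 3 dpi, and no list was tested against these shares. Of 11 genes for NRF2, its regulators and its partners, 1 was called higher and none lower at 1 dpi, and none was called at 3 dpi. The median log2 difference of the 11 was -0.07 at 1 dpi, beside 0.25 over all genes, and 0.12 at 3 dpi, beside 0.11, and it turned to 0.22 at 1 dpi in the deposited log2 table and to -0.01 at 3 dpi with median scaling. Nfe2l2 read 2.95, 2.99 and 2.95 in Ctrl, 2.81, 2.81 and 2.79 at 1 dpi, and 3.05, 3.12 and 3.07 at 3 dpi, a log2 difference of -0.16 at 1 dpi (adjusted p = 0.0332) and 0.12 at 3 dpi (adjusted p = 0.125). Over the 7 settings run for the lists, the 1 dpi difference of Nfe2l2 ranged from -0.47 to 0.51 and the 3 dpi difference from -0.01 to 0.18, so that neither direction is firm. Keap1 differed by 0.25 at 1 dpi (adjusted p = 0.0509), with a range of -0.07 to 0.33 over the same settings, and did not pass the test at 3 dpi (adjusted p = 0.974). Bach1, the repressor of Hmox1, read 0.97, 0.99 and 0.98 in Ctrl, 0.48, 0.63 and 0.61 at 1 dpi, and 1.09, 1.15 and 1.06 at 3 dpi. Bach1 was thus lower on all 3 arrays of 1 dpi (-0.41, adjusted p = 0.00114) and at 3 dpi did not pass the test (0.12, adjusted p = 0.194). The called gene was Maff, a small Maf protein that partners NRF2 and BACH1, at 1.29 (adjusted p = 5.55e-05), which fell to 0.98 and below the 2-fold bound with each array scaled to its median. By adjusted p alone 3 of the 11 were higher and 4 lower at 1 dpi, beside 34.8% and 21.1% of all genes. Among them was Sqstm1, which encodes a protein that draws KEAP1 away, at 0.92 (adjusted p = 0.000143), called under 2 of the 7 settings and named after its values were seen.

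Of 33 other genes of glutathione use and NADPH supply, 5 were called at 1 dpi (4 of them higher) and 6 at 3 dpi (5 of them higher). Their median was 0.30 at 1 dpi and 0.18 at 3 dpi, beside 0.25 and 0.11 over all genes, and at 1 dpi it turned to -0.07 after quantile normalization and to -0.02 with median scaling. The malic enzyme Me1, a source of NADPH, rose by 2.19 at 1 dpi (adjusted p = 7.5e-05) and by 3.26 at 3 dpi (adjusted p = 1.08e-05), and Gpx8, a peroxidase of the endoplasmic reticulum, by 1.72 (adjusted p = 1.6e-05) and 3.28 (adjusted p = 6.58e-07). The Me1 call at 1 dpi was lost with normexp background correction combined with quantile normalization. The others called, named after their values were seen, were Ggt1, Glrx2 and Chac2 (the last lower) at 1 dpi and Gstt1, Ggt1, Gpx7 and Gpx2 (the last lower) at 3 dpi, of which Glrx2 was called under no other setting, Chac2 was lost without Ctrl replicate 1 and Ggt1 at 1 dpi was lost after quantile normalization. With normexp, 1 higher and 1 lower call remained at 1 dpi and 3 higher calls at 3 dpi, where Ggt1, Gpx7 and Gpx2 were lost. Slc3a2, the heavy chain that carries SLC7A11 to the membrane, differed by 0.66 at 1 dpi (adjusted p = 0.00182), and Gss and Gsr, which complete and recycle glutathione, by 0.41 (adjusted p = 0.00262) and 0.35 (adjusted p = 0.00691), all under 2-fold, although Slc3a2 rose by up to 1.30 under another setting and was called there. These 3 were also named after their values were seen.

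Of 14 thioredoxin and peroxiredoxin genes, 1 was called higher at 1 dpi and none at 3 dpi. It was Sesn2, a stress-induced sestrin, at 0.20, 0.21 and 0.27 in Ctrl, 1.88, 1.80 and 1.77 at 1 dpi, and 0.91, 0.68 and 0.66 at 3 dpi. Sesn2 rose by 1.59 at 1 dpi (adjusted p = 5.77e-06) and differed by 0.52 at 3 dpi (adjusted p = 0.00195). Its fall between the time points was called too (-1.06), though not with median scaling or relative to the median of all genes (-0.95). Prdx4 was called higher at 3 dpi than at 1 dpi (1.13, adjusted p = 5.03e-05). The median of the list was -0.10 at 1 dpi and 0.03 at 3 dpi, and -0.41 and -0.10 with median scaling, where Sesn3 and Prdx4 were called lower at 1 dpi. Sesn3 and Prdx4 were named after their values were seen. Of 11 genes of superoxide, peroxide, haem and metal defence, 3 were called higher at each time and none lower, with a median of 0.40 at 1 dpi and 0.42 at 3 dpi. The 3 calls and the medians include Sod3 at each time, which passed the background filter only through the groups post IR. With median scaling the 1 dpi median was 0.08, and 1 gene was called higher and 1 lower, the latter being Cat, the catalase (-0.79 as fitted, -1.04 relative to the median of all genes), named after its values were seen. Mt1, a metallothionein, rose by 1.16 (adjusted p = 3.42e-05) and 1.01 (adjusted p = 8.02e-05), Ftl1, the ferritin light chain, by 1.09 at 1 dpi (adjusted p = 0.00025), and Mt2 by 1.09 at 3 dpi (adjusted p = 1.99e-05). The calls of Mt1 at both times and of Mt2 were lost with each array scaled to its median and relative to the median of all genes, those of Mt1 also after quantile normalization and with normexp, and that of Ftl1 under each of the 6 other settings. The third called gene at each time was Sod3, the extracellular superoxide dismutase, which was well above background on 2 of the 3 Ctrl arrays. It passed the filter only through the groups post IR, where it is high. No size is therefore given for its rise, and nothing further is drawn from its calls.

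Of 22 genes tied to ferroptosis, 2 were called at 1 dpi (1 of them higher) and 2 at 3 dpi (both higher), with a median of 0.03 and 0.08, which turned to -0.29 and -0.04 with median scaling. Hspb1, a small heat shock protein, rose by 1.94 at 1 dpi (adjusted p = 1.75e-05) and 1.996 at 3 dpi (adjusted p = 1.52e-05). The transferrin receptor Tfrc, which brings iron into cells, fell by 1.02 at 1 dpi (adjusted p = 0.000458), a call lost without Ctrl replicate 1, with normexp and in the deposited table, and Alox12, the platelet 12-lipoxygenase, rose by 1.22 at 3 dpi (adjusted p = 1.06e-05). Acsl4, which loads membranes with oxidizable fatty acids, differed by -0.58 at 1 dpi (adjusted p = 0.000469), and Aifm2, a suppressor of ferroptosis that acts through coenzyme Q, by 0.82 (adjusted p = 0.000135). Alox15 differed by -0.83 at 1 dpi (adjusted p = 0.0011) and by -0.84 at 3 dpi (adjusted p = 0.00164). Relative to the median of all genes it was -1.08 at 1 dpi and called lower, and 2 of the list were called lower there and with median scaling. Acsl4, Aifm2 and Alox15 were under 2-fold as fitted and were named after their values were seen. Of 9 genes of selenoprotein synthesis and selenium supply, none was called at 1 dpi and 1 at 3 dpi, Selenop, the selenium carrier of plasma, which rose by 2.06 (adjusted p = 3.88e-07). With median scaling 1 gene of this list was called lower at 1 dpi. Of 10 NADPH oxidase genes, 1 was called higher (Nox1) and 1 lower (Duox2, -1.11, adjusted p = 0.0436, lost without Ctrl replicate 1) at 1 dpi, and none at 3 dpi. Nox1 was well above background on 2 of 3 Ctrl arrays and passed the filter only through the groups post IR. It read -6.44 on Ctrl replicate 1 against -4.12 and -4.14 on the other Ctrl arrays, and no size is given for its rise. The Nox1 call was lost with normexp, and Cybb, at -0.94 as fitted and named after its values were seen, was called lower at 1 dpi under each of the 6 other settings. The medians of the last 2 lists were -0.00 and 0.16 at 1 dpi, and -0.13 and 0.00 at 3 dpi. With median scaling they were -0.32 and -0.16 at 1 dpi, and -0.25 and -0.12 at 3 dpi, in the same order.

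**Figure D4:**
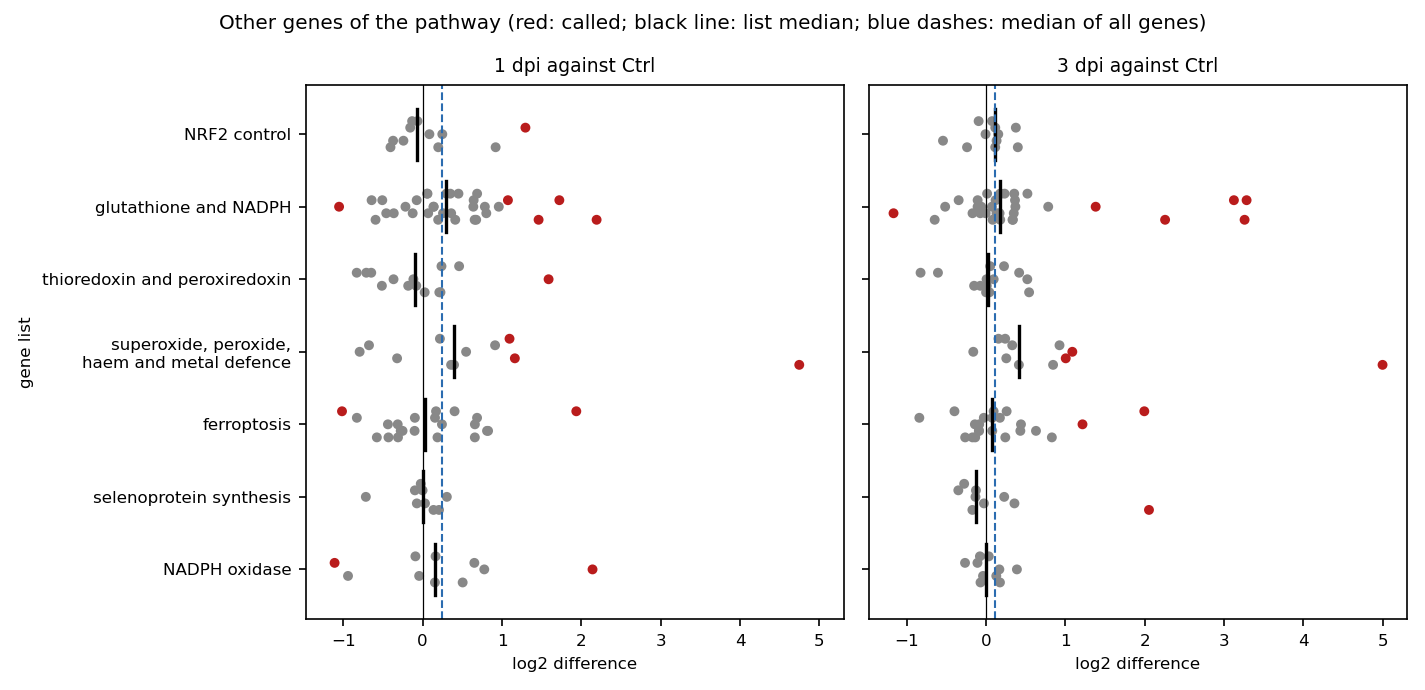
Log2 difference from Ctrl (x axis) of every gene of the 7 lists of other pathway genes (y axis) at 1 and 3 dpi. Points are genes (red where called), black lines the median of each list and blue dashes the median of all genes (0.25 and 0.11). Most points lie within 1 of 0. Sod3 passed the background filter only through the groups post IR, and its place is not read. Among the other genes, Gpx8, Me1 and Gstt1 lie farthest to the right at 3 dpi.

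Beside the megakaryocyte label stand 12 markers, all well above background in each group and led by Pf4 and Ppbp. They summed to 131, 118 and 116 in Ctrl, 130, 119 and 117 at 1 dpi, and 138, 136 and 135 at 3 dpi, and none of the 12 was called at either time. The sums rest largely on the brightest genes, and single markers did move: Gp1ba differed by -0.82 at 1 dpi (-1.07 and called relative to the median of all genes), and Gp6 and Gp9 by 0.95 and 0.93 at 3 dpi (adjusted p = 6.58e-05 and 5.38e-05), all named after their values were seen. At 3 dpi 1 marker was called lower in the deposited table. The 8 neutrophil markers given below summed to more than the 12 megakaryocyte markers on every array. Most markers of the other cell types were also well above background in Ctrl. The markers therefore do not show how pure the mMKs were. The shares of all genes called, given with the pathway lists, hold for the marker lists below too, and no marker list was tested against them. Of the 10 stromal markers 7 were called higher at each time, with 9 at 3 dpi in the deposited table. Of the 13 macrophage markers 5 were called at 1 dpi (4 of them higher) and 10 at 3 dpi (all higher). Of the 7 endothelial markers, led by Stab2 and Plvap, 4 were called higher at 1 dpi and 6 at 3 dpi, although with median scaling 2 were called higher and 1 lower at 1 dpi (Tek, -0.91 as fitted, named after its values were seen), and their sum went from 2.58, 2.31 and 2.37 in Ctrl to 5.23, 4.55 and 4.77 at 1 dpi and 10.3, 8.63 and 8.87 at 3 dpi. The calls at both times include Flt4, named after its values were seen, which was well above background on 2 of 3 arrays in Ctrl and at 1 dpi and passed the filter only through 3 dpi, and whose 1 dpi call was lost under 5 of the 6 other settings. Of the 8 B cell markers, led by Cd79b and Vpreb3, 7 were called lower at each time, and their sum went from 26.1, 24.4 and 25.1 in Ctrl to 5.62, 5.38 and 5.58 at 1 dpi and 5.34, 5.20 and 5.16 at 3 dpi.

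The 8 neutrophil markers, led by Mpo and Camp, summed to 997, 1066 and 1054 in Ctrl, 1798, 1670 and 1642 at 1 dpi, and 1121, 997 and 1058 at 3 dpi, with 2 called higher at 1 dpi and none at 3 dpi. This rise depends on the scaling, as the list median at 1 dpi went from 0.52 to -0.06 after quantile normalization, and none was called there, with median scaling, with normexp or relative to the median of all genes. The 9 erythroid markers tested, led by Hba-a1 and Hbb-bt, summed to 135, 116 and 122 in Ctrl, 283, 230 and 225 at 1 dpi, and 42.3, 43.4 and 40.4 at 3 dpi. Of them 7 were called at 1 dpi (6 of them lower) and 8 at 3 dpi (all lower), and the higher call at 1 dpi was not made after quantile normalization, with normexp or in the deposited values. The 8 T and NK cell markers, led by Nkg7 and Cd4, summed to 29.8, 31.4 and 29.9 in Ctrl, 43.4, 40.6 and 40.9 at 1 dpi, and 36.1, 32.6 and 31.9 at 3 dpi, with 1 called higher at 1 dpi and 3 at 3 dpi. The gene called at 1 dpi was called under none of the 6 other settings. The deposited log2 table, however, had 2 of 7 markers of this list called higher at 1 dpi. Of the 6 dendritic markers, led by Siglech and Flt3, Xcr1 was not well above background on any array, and the others summed to 16.0, 30.8 and 31.5 in Ctrl, 49.97, 46.3 and 44.6 at 1 dpi, and 26.9, 23.9 and 23.3 at 3 dpi, with 1 called higher and 2 lower at 1 dpi and 1 lower at 3 dpi. The higher call, of Siglech, was made under none of the 6 other settings, and Siglech read 3.67 on Ctrl replicate 1 against 4.80 and 4.84 on the other Ctrl arrays. The part of these cells in the rises of Hmox1, Gpx3 and Srxn1 and in the pathway lists was not tested.

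**Figure D5:**
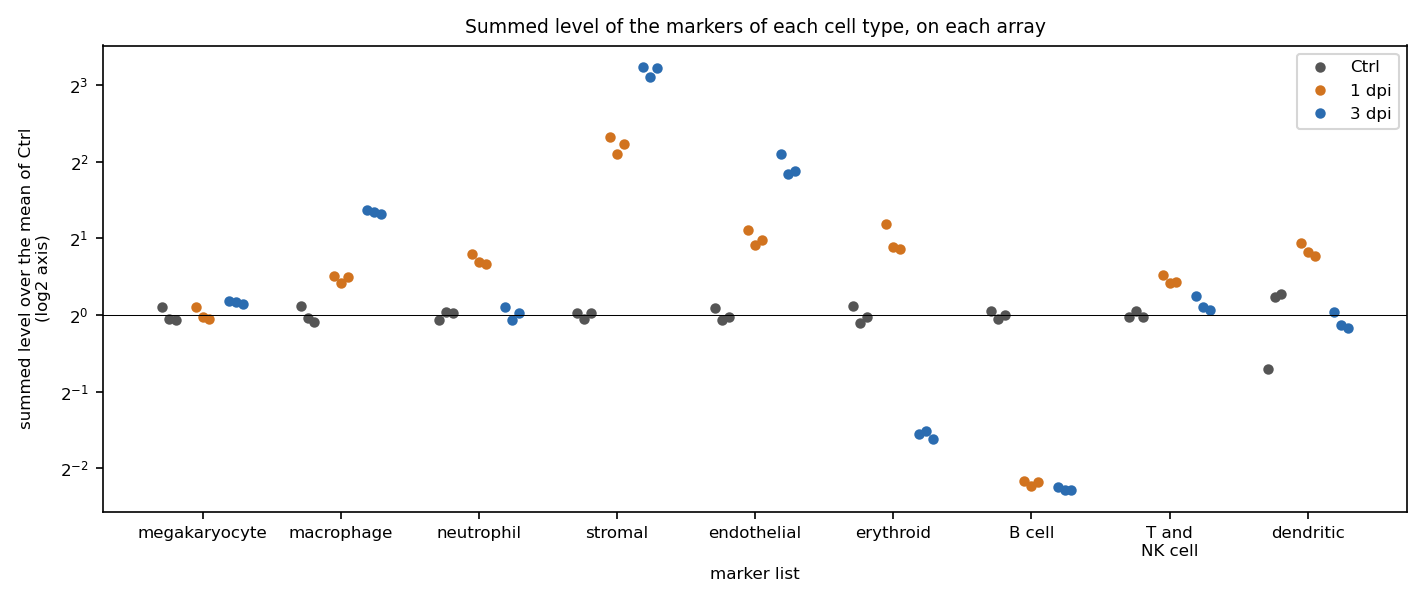
Summed level of the markers of each cell type on each array, divided by the mean of the 3 Ctrl arrays (y axis, log2 scale), by marker list (x axis) and group (colour). The megakaryocyte sums stay near 1, while the stromal, macrophage and endothelial sums lie above Ctrl at both times and the B cell sums lie below.

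Ctrl replicate 1 was alone on its slide and the other 8 arrays shared another. With the slide as a block, which comes to the same as leaving Ctrl replicate 1 out, 2 members were called at 1 dpi and 3 at 3 dpi, and the differences at 3 dpi were 2.41 for Gpx3, 1.26 for Srxn1 and 1.36 for Hmox1. On the shared slide most arrays of a group lay next to one another, so that group and place on the slide cannot be told apart. With 3 arrays against 3, no exact permutation test of a single gene can go below p = 0.1, so the tests rest on the spread shared over genes and arrays.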

How the data were processed

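RNA of 9 samples, 3 each of Ctrl, 1 dpi and 3 dpi, was measured on Agilent 1-colour arrays with probes of 60 bases. The chip described in the study's methods is of another make, and its steps were therefore not used here. By the file headers, the authors deposited spot intensities from Agilent Feature Extraction 10.7.1.1, with local background subtracted and arrays left unscaled. A log2 table was deposited as well, with 1 row per gene name. Its column medians lay between 5.79 and 5.87, and the rows of all 10 members matched 1 probe within 0.1 after quantile normalization of log2 intensities, so that its scale is log2 and its direction that of the intensities. How a probe was picked for each row is not given in the sources used here.

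Control spots (3671 of 62976) and spots flagged as outliers were left out, and spots of 1 probe were averaged. The log2 intensity minus the 75th percentile of the array was used. Of 56605 probes, 44300 passed the background flag on each array of 1 group or more and were kept, and 20 were dropped because outlier flags left them without a value. Probes were named through RefSeq accessions (32994 probes, names from GRCm38.p6) or else by the name in the files (23611). The brightest kept probe stood for a gene. limma 3.58.1 in R 4.3.3 was fitted to 29410 genes in 3 groups (two-sided, Benjamini-Hochberg adjustment) and again to all kept probes, and was tested on simulated data. No saturated spot was found. The number of arrays limits the precision.

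The members and gene lists were chosen with earlier results of these data known. The detection of single erythroid markers is not reported here. Named genes were the 10 members, in each pathway list the 2 called genes with the largest change per comparison with Ctrl among those passing the background flag on each array compared, plus Nfe2l2, Keap1 and Bach1, the 2 brightest markers of each cell type, and the 3 genes most like the members with the largest rise and fall at 1 dpi. The alternatives were other normalizations (quantile, array median, normexp with an offset of 50 combined with quantile normalization), the deposited log2 table, other probe filters, the mean of all probes, no minimum fold, the methods' t-test, replicate or slide blocks, only the 2 groups compared, each array left out, and, chosen after seeing the data, folds relative to the median of all genes.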

Additional observations from a re-analysis of the deposited data

Results flagged for a closer look

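For 6 of the 10 genes the change at 3 dpi differed from that at 1 dpi by the test of the difference itself (limma, adjusted p over all genes), though for none by 2-fold or more on its brightest probe as scaled. Of all genes, 19.8% were higher and 24.9% lower at 3 dpi by the same test, so that 6 of 10 does not set these genes apart. On the log2 scale, 3 dpi minus 1 dpi was 0.96 for Gpx3 (adjusted p = 0.000227), 0.78 for Gclm (adjusted p = 0.000672), 0.35 for Nqo1 (adjusted p = 0.00161), 0.30 for Srxn1 (adjusted p = 0.00902), 0.22 for Txnrd1 (adjusted p = 0.0164) and -0.80 for Slc7a11 (adjusted p = 0.00486). The arrays of the 2 groups did not overlap for these 6 genes, nor for Gclc and Gpx4, nor for 65.5% of all genes. On the second Txnrd1 probe the difference was -0.22 (adjusted p = 0.115), so the direction for this gene rests on 1 probe. Of the 4 Slc7a11 probes, 1 did not fall (0.12, adjusted p = 0.638). The second Hmox1 probe fell 2.32-fold (-1.22, adjusted p = 0.0011), and Gpx3 rose by 1.07 relative to the median of all genes. The median of all genes differed by -0.11 between the time points.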

How the results depend on the processing

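Hmox1 and Gpx3 were called higher at 1 dpi, and Gpx3 and Srxn1 at 3 dpi, under every alternative run, and Hmox1 at 3 dpi under all but the methods' t-test with Benjamini-Hochberg adjustment. Of 660 single differences of members under an alternative, 591 kept their direction and call, 40 were newly called and 1 call was lost. Another 28, none of them called, changed sign, and 0 called differences reversed. Most of the 40 came from the methods' t-test, adjusted or not, which has no minimum fold, and so go with a looser rule. With no minimum fold, the calls were 16443 genes and 7 members at 1 dpi, 9416 and 6 at 3 dpi, and 13125 and 6 between 1 and 3 dpi. The methods' t-test gave 15674 genes and 8 members, 10523 and 7, and 16909 and 8 unadjusted, and 12626 and 6, 7120 and 5, and 14319 and 8 after adjustment, with no minimum fold by construction. With normexp and quantile normalization together, 1695, 1151 and 1095 genes were called, and the part of each step was not tested. With no filter on dim probes 4489 were called between 1 and 3 dpi, where the cause was not tested. Between 1 and 3 dpi, 1 member instead of 0 was called with arrays scaled to the median and with folds relative to the median gene (Gpx3 in both) and in the deposited table (Hmox1, through its other probe).

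Leaving out 1 array at a time gave 3561 to 5367 genes and 2 to 2 members at 1 dpi, 2347 to 2768 and 3 to 3 at 3 dpi, and 2264 to 2812 and 0 to 1 between 1 and 3 dpi. The 1 was Gpx3 without replicate 2 of 3 dpi (1.03). Calls at 1 dpi split into 3623 higher and 845 lower, but into 1953 and 1521 after quantile normalization, 1993 and 2087 with median scaling, 1164 and 531 with normexp, and 1762 and 1740 in the deposited table. At 3 dpi they were 2053 and 534, and 1625 and 733 in the deposited table. Between 1 and 3 dpi they were 1169 and 1419, and 1610 and 969, 1743 and 851, 570 and 525, and 1639 and 914 under the same alternatives in that order.

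Samples share only a replicate number across groups. The correlation of the deviations of same-numbered arrays lay between -0.11 and 0.13, 1 of 9 pairs being over 0.1, and 2 of 9 arrays were most like their own number. The replicate block gave 4273, 2498 and 2494 genes and 2, 3 and 0 members, and changed no call of a member. All 15 probes of the members passed the background flag on all 9 arrays. Some were dim all the same, as the second Hmox1 probe with a Ctrl mean of -5.63, and the effect of low signal on their differences was not tested.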
